A study of Mus musculus with 6 samples.

Results

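H3K27ac peaks of mouse embryonic stem cells (mESCs) that lay at promoters of long intergenic non-coding RNA (lincRNA) genes, and at no promoter of a protein-coding gene, numbered 434 of 22973 peaks in the control list (1.89%). They were chosen by position: a peak was kept if it lay on an autosome, was under 10000 bp wide, overlapped the 1 kb on either side of the transcription start site (TSS) of a lincRNA gene by at least 1 bp, and overlapped no such window of any transcript of a protein-coding gene. Since the presence and the width of the peaks chose them, both are given below as descriptions, and no test was made of either. The TSS of the longest transcript stood for each lincRNA gene in the GENCODE annotation (release M21, GRCm38).

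The study treated cells of the E14 line, derived from E14Tg2A with Rosa26-Cre and Oct4-IRES-Puro, with the solvent DMSO (control), 100 nM NVP-2, an inhibitor of the elongation kinase CDK9, or actinomycin D (800 nM in one label and 1 µg/ml in another), which binds DNA and blocks transcription. Treatment lasted 120 min, each condition had 2 samples, and all cells grew in N2B27 medium with LIF, PD0325901 and CT-99021. Chromatin was precipitated with an antibody against H3K27ac together with human HEK293T chromatin as a spike-in. One list, pooled over both control samples and giving positions without heights, was analysed here, and the 4 treated samples were not analysed here. There was therefore no spread between replicates, the depth behind each peak cannot be read from the list, and the 95% intervals given here cover counting error only. Neighbouring peaks and genes are not independent of each other. A single line of cells was used, and 30 of 36 protein-coding genes of a pluripotency and signalling list, among them Pou5f1, Sox2, Nanog and Zfp42, had a promoter under a peak, beside 51.9% of all protein-coding genes. Klf4, Dppa3, Sall4, Lefty1, Lefty2 and Nodal had none.

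H3K27ac is an acetyl group on lysine 27 of histone H3, placed mainly by the acetyltransferases p300 and CBP, and is found at active promoters and enhancers. LincRNAs are transcribed by RNA polymerase II from their own units between protein-coding genes, are usually capped, spliced and polyadenylated, and are mostly expressed at lower levels and in fewer cell types than mRNAs. Most promoters of mammalian housekeeping genes sit in CpG islands, where the dinucleotide CpG has escaped the loss seen in the rest of the genome, and tissue-specific promoters and enhancers often do not. Promoters of lincRNAs and enhancers are hard to tell apart by H3K27ac alone, since both carry it.

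The start sites at the peaks ran from dense CpG islands to stretches without any CpG. Counting for each peak only the TSS nearest its midpoint, the 3 promoters with the highest ratio of observed to expected CpG in the 1 kb around the TSS are shown first, from 100 bases before the TSS to 50 from it, 5′ to 3′ in the direction of transcription, in the GRCm38 genome, with every CpG in capitals.
Gm20732 (chr15:68363127-68363276, minus strand): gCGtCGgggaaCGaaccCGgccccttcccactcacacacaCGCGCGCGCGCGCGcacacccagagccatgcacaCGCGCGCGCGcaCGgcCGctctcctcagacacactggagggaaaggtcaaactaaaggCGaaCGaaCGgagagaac
AL805899.1 (chr4:88938472-88938621, minus strand): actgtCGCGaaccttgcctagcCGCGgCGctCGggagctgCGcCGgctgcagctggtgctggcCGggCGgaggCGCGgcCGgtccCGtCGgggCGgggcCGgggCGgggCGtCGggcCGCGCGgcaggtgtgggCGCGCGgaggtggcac
Tmem250-ps (chr2:26140472-26140621, minus strand): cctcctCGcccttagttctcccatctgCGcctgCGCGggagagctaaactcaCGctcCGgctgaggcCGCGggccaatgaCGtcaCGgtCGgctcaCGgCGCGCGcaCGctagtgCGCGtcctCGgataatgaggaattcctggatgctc

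Gm20732 had a ratio of 1.07 in that 1 kb and 21 CpGs in the 150 bases shown, and its CpGs include runs of alternating C and G. AL805899.1 had a ratio of 1.00 and 26 CpGs in 150 bases that were 82% G or C, and Tmem250-ps had a ratio of 0.961 and 19 CpGs. The peaks over them were 2393, 607 and 2140 bp wide. AL805899.1 holds the hairpin of Mir31 in its transcribed span.

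The 3 promoters at the other end of the same order are shown over the same stretch. None of them holds a CpG in it. The capitals in Gm12088 mark the octamer ATGCAAAT, the sequence bound by POU-domain factors such as Oct4, which begins 26 bases before the TSS.
Gm48684 (chr13:107034184-107034333, plus strand): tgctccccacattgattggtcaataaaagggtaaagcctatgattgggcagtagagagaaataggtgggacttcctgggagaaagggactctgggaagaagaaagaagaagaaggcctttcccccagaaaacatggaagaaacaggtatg
Gm49762 (chr13:74474543-74474692, plus strand): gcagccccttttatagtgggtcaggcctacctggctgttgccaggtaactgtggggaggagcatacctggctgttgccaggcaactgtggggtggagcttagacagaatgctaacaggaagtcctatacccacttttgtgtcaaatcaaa
Gm12088 (chr11:29595687-29595836, plus strand): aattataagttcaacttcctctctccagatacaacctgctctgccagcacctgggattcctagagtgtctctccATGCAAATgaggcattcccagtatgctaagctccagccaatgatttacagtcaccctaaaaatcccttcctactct

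Gm48684, Gm49762 and Gm12088 had ratios of 0.0279, 0.0419 and 0.0429 in the 1 kb around the TSS, and their peaks were 3191, 2320 and 2251 bp wide. All 3 widths lay within the quartiles of the widths of all 434 peaks (1587.5 to 4866 bp), as did the widths at Gm20732 and Tmem250-ps. At Gm49762 and Gm12088 the TSS lay outside the peak, by 536 and 167 bp.

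A TATA box (TATAAA starting 40 to 20 bases before the TSS on the sense strand) was present at 2 of the 434 peaks. Both promoters are shown with the box in capitals.
2610035D17Rik (chr11:113201789-113201938, minus strand): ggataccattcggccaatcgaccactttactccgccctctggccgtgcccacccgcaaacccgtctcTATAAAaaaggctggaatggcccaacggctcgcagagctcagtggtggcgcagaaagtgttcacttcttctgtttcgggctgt
4933411E08Rik (chr10:117925359-117925508, plus strand): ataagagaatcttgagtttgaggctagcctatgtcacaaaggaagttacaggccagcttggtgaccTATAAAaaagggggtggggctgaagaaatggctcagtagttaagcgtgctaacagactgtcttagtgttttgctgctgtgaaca

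The peak at 2610035D17Rik was 6763 bp wide and began 77 bp downstream of the TSS, and that at 4933411E08Rik was 1661 bp wide and covered it. The box starts 33 and 34 bases before the TSS. Among all 452 lincRNA genes at the peaks the share with the box was 0.442%, against 1.48% of lincRNA genes at no peak and 0.707% of protein-coding genes at peaks of their own, and both differences had intervals that include 0.

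Of the 22518 autosomal peaks, 844 overlapped a lincRNA promoter. Protein-coding promoters were overlapped as well by 339 of these, and of the other 505, 71 were 10000 bp or wider, which leaves the 434. They made up 2.07% of the 20922 autosomal peaks under 10000 bp. On chromosomes X and Y, which the rule leaves out, 5 peaks overlapped lincRNA promoters only.

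Counted by genes, 883 of 5209 autosomal lincRNA promoters (17%) were overlapped by any peak of the list, and 452 (8.68%, 95% interval 7.94–9.47%) by one of the 434. A further 350 (6.72%) lay at a peak shared with a protein-coding promoter, 81 (1.56%) only at a wide peak, and 4326 (83.0%) at no peak. These last are called unmarked below, which says only that no listed peak reached their window. With peaks matched by their midpoint, the share of 8.68% fell to 5.18%. Of the 434 peaks, 416 held 1 lincRNA promoter, 18 held 2 and none held more.

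The peaks nearest to the rule's limits are given here by width and distance only. Just under the width limit were the peaks at AC166654.1 (9880 bp) and 4933439N14Rik (9924 bp), and just over it those at Gm28942 (10116 bp) and 1700028I16Rik (10164 bp). The widest peak left out, at Gm29283, was 40489 bp. On the distance to protein-coding genes, the peaks at Gm26883, 1400 bp from the start of Tshz2, and at 2410003I16Rik, 1595 bp from Cldn14, were the nearest kept, and those at Gm38150, 959 bp from Ifrd2, and Gm36026, 539 bp from Krt8, were left out. On the distance to the lincRNA itself, the peaks at Gm10482 (999 bp from the TSS) and AC124316.1 (996 bp) were the farthest inside, and those near Gm44955 (1023 bp) and Gm35189 (1058 bp) the nearest outside.

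The peaks spread widely about the start sites they were matched to. The TSS itself lay inside the peak at 344 of 434 (79.3%, 95% interval 75.2–82.8%). At 293 (67.5%) the peak covered at least 200 bp on both sides. Another 55 peaks began downstream of the TSS and 35 ended upstream of it, and in these 90 the TSS was a median of 374.5 bp from the peak's edge. The midpoint of the peak lay downstream at 246 (56.7%, 95% interval 52.0–61.3%), by a median over all peaks of 105 bp. The median reach was 1179.5 bp downstream and 919.5 bp upstream. At 44 peaks (10.1%) the whole gene lay under the peak.

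**Figure D1:**
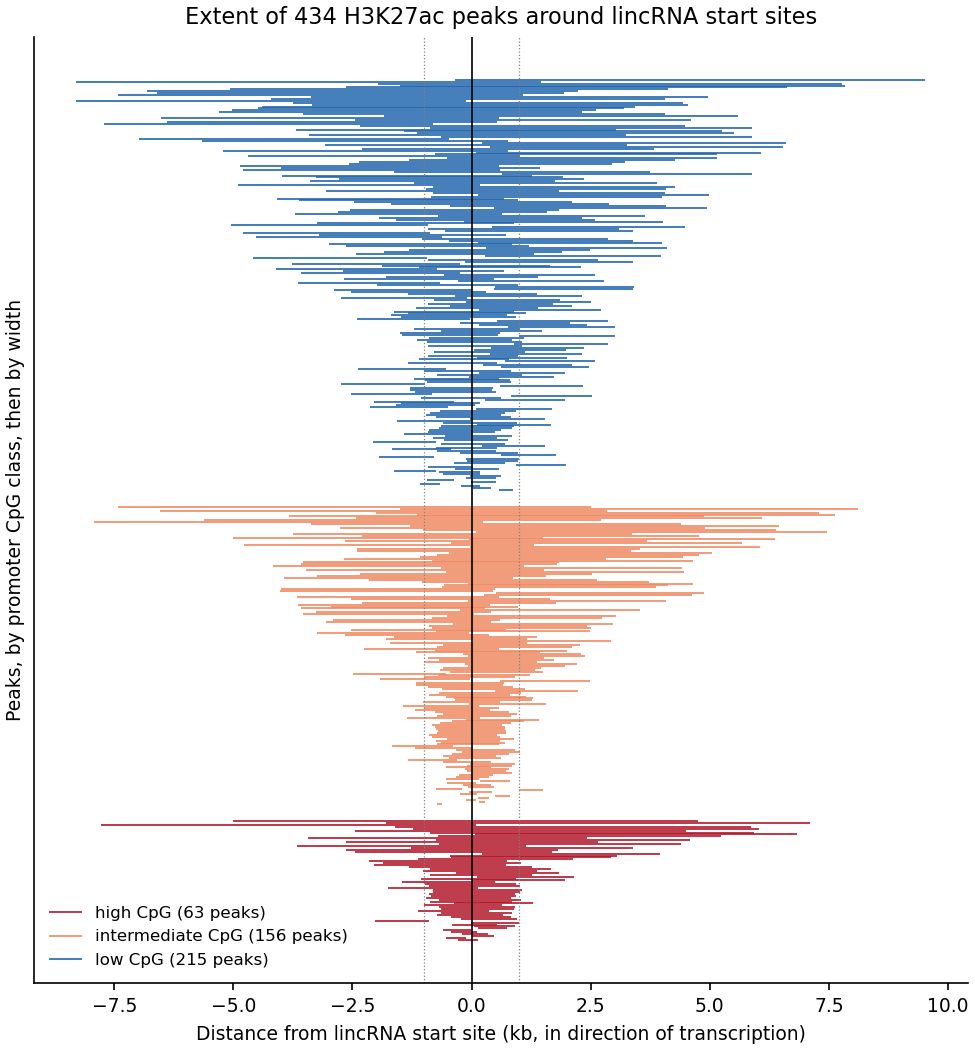
Each horizontal line is 1 of the 434 peaks, drawn from its upstream to its downstream edge in kb from the lincRNA start site at 0, in the direction of transcription. Peaks are grouped by the CpG class of the promoter and sorted by width within a class, dotted lines mark 1 kb on either side, and most lines cross 0 (344 of 434).

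The median width was 2632 bp (95% interval 2301–2978 bp), with quartiles of 1587.5 and 4866 bp and extremes of 96 and 9924 bp. Peaks at protein-coding promoters only had a median of 1943 bp (9407 peaks), peaks at neither type of promoter 1936 bp (10813 peaks) and peaks at both types 2305.5 bp (268 peaks), given as descriptions since the rule favours wide peaks that reach a window. Under 1000 bp were 10.4% of the lincRNA peaks, 13.7% of the protein-coding ones and 16.9% of those at neither. When a peak was matched by its midpoint, the median width of the 265 lincRNA peaks left was 1799 bp. The other classes were not matched again in this way, so no order of the widths is read from these values. The authors merged peaks within 2 kb of each other, and 183 of the 434 (42.2%) were no wider than 2000 bp. Peaks with the TSS inside had a median of 2926.5 bp and those with it outside 1893.5 bp. This too is a description, since a wider peak that touches the window more easily holds the TSS.

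The 10 widest belonged to 4933439N14Rik (9924 bp), AC166654.1 (9880 bp), Gm12866 (9771 bp), Gm29340 (9766 bp), 2810403G07Rik (9748 bp), Gm47430 (9616 bp), 2310069B03Rik (9384 bp), 5330413P13Rik (9341 bp), CT033772.2 (9292 bp) and Gm26540 (9261 bp). All 10 held the TSS. They lay unevenly about it. The peak at AC166654.1 reached 353 bp upstream and 9526 bp downstream, and that at Gm12866 reached 8302 bp upstream and 1468 bp downstream. Near the gene of the translation factor Eef1a1, the peak at Gm47430 ended 29887 bp from the coding start site, and near Il6st, which encodes the gp130 subunit of the LIF receptor complex, that at 2810403G07Rik ended 44742 bp away. The 5 narrowest were at B130011K05Rik (96 bp), Gm11729 (125 bp), Gm31816 (223 bp), Gm41414 (235 bp) and 4930546K05Rik (297 bp). Of these, only the peak at Gm31816 held the TSS.

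In base composition the lincRNA peaks were closer to peaks at neither type of promoter than to protein-coding ones. The class at neither can still hold promoters of other gene types. Their median GC content was 48.4% (95% interval 48.1–48.8%), against 53.9% at protein-coding promoters only and 47.3% at neither. The ratio of observed to expected CpG over the whole peak had a median of 0.269, against 0.593 and 0.215. Soft-masked bases (repeats and low-complexity sequence as the genome file marks them) made up a median of 19.03% of a lincRNA peak, 11.9% of a protein-coding one and 21.8% of a peak at neither. In each of these 3 measures the lincRNA peaks lay between the other classes, nearer to those at neither, and the intervals of the 3 medians did not overlap in any of them.

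**Figure D2:**
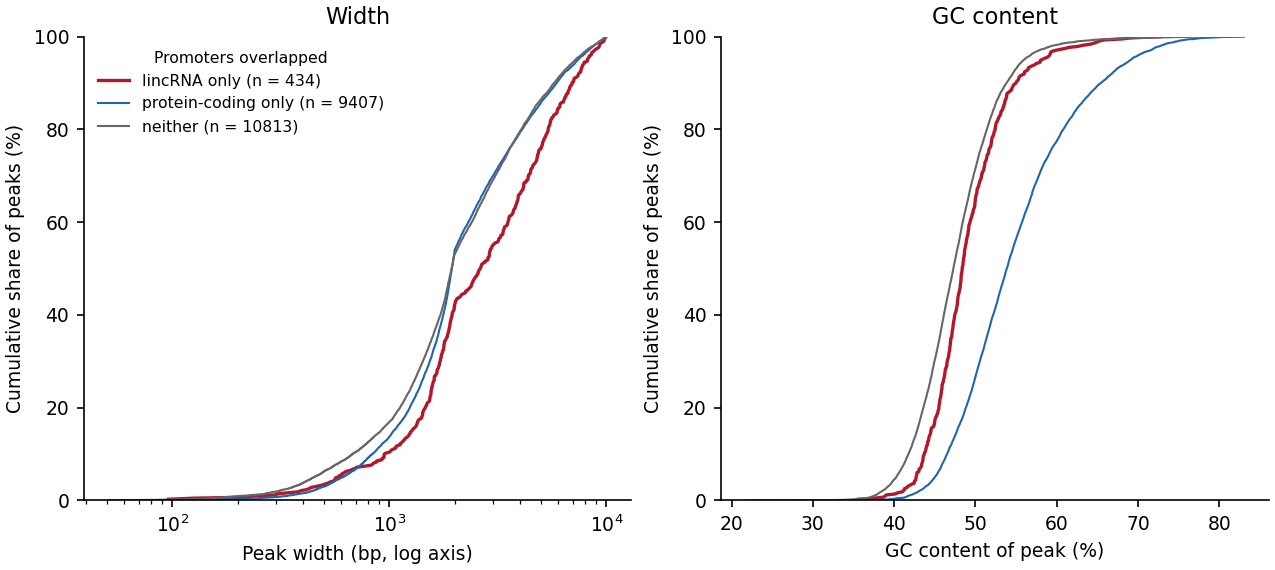
Cumulative share of peaks (%) against peak width in bp on a log axis (left) and against GC content in % (right) for peaks at lincRNA promoters only (434), at protein-coding promoters only (9407) and at neither (10813). In GC content the curve of the lincRNA peaks runs close to that of the peaks at neither (medians 48.4 and 47.3%), and the width curves are a description, since width entered the choice of the peaks.

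The genes were also compared by the CpG class of their promoters. A promoter was put in the high class if any 500 bp stretch within 1 kb of the TSS had a CpG ratio above 0.75 and more than 55% GC, in the low class if no stretch had a ratio above 0.48, and otherwise in the intermediate class. Of the 452 lincRNA genes at the peaks, 67 (14.8%) were high, 163 (36.1%) intermediate and 222 (49.1%) low. Unmarked lincRNA genes were high in 3.47% and low in 70.9%, and protein-coding genes at peaks of their own high in 82.1% and low in 3.85%. The high share was 11.4 percentage points above that of unmarked lincRNA genes (95% interval 8.32 to 15.0) and its difference from that of the protein-coding genes was -67.2 points (-70.3 to -63.6). With the class taken from the 500 bp centred on the TSS alone, the high share was 7.74% at the peaks, 1.46% in unmarked lincRNA genes and 60.1% in the protein-coding genes. Read the other way, by the first definition, a peak of the 434 lay at 15.1% of the 444 high-class autosomal lincRNA promoters, at 11.9% of the 1368 intermediate ones and at 6.54% of the 3397 low ones, beside 8.68% of all.

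**Figure D3:**
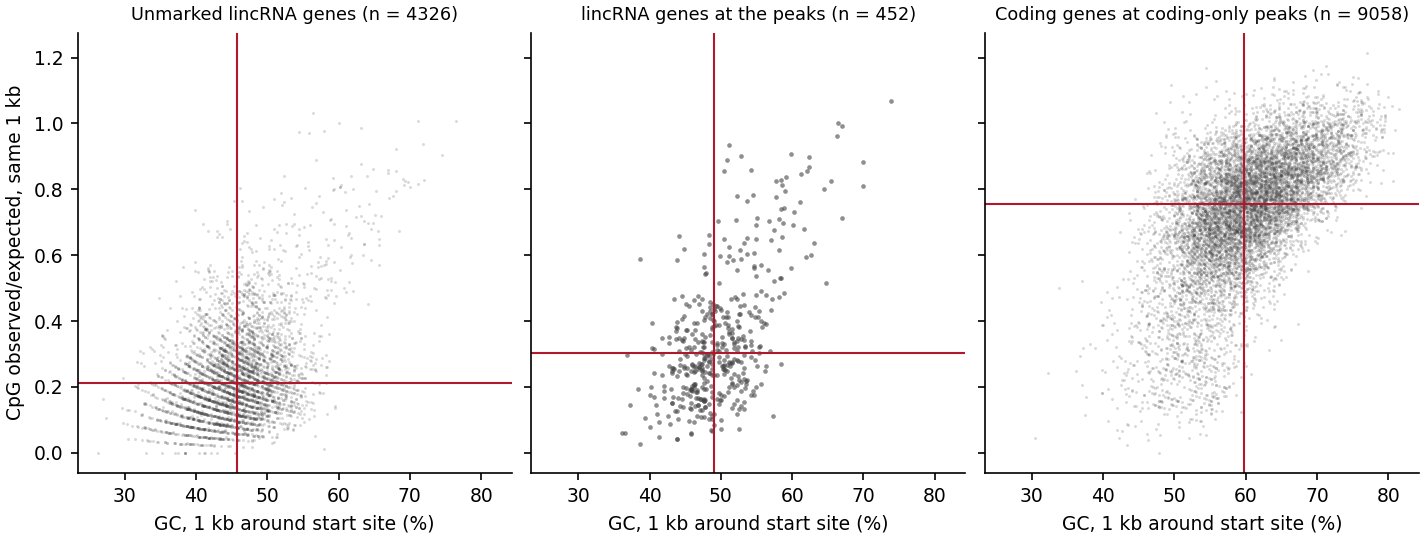
GC content (%) and ratio of observed to expected CpG in the 1 kb around the TSS, 1 point per gene, for unmarked lincRNA genes (4326), lincRNA genes at the peaks (452) and protein-coding genes at protein-coding only peaks (9058), with red lines at the medians. The median CpG ratio was 0.212, 0.305 and 0.756, and the lincRNA genes at the peaks overlap mostly with the unmarked ones.

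Within the 434, peaks over high-class promoters had a median width of 1958 bp (63 peaks), over intermediate ones 2469 bp (156) and over low ones 2957 bp (215). The intervals of the high and low classes were 1787–2769 and 2489–3703 bp. These widths are a description, since width entered the choice of the peaks, and no order of the classes is read from them. GC content of the peak went from 52.3% in the high class to 47.8% in the low class.

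The TSS base was soft-masked in 18.4% of the lincRNA genes at the peaks, 22.0% of the unmarked ones and 6.60% of the protein-coding genes. The difference from unmarked lincRNA genes was -3.62 points (-7.15 to 0.397), and that from protein-coding genes 11.8 points (8.42 to 15.6). Among the genes at the peaks it was 8.96% in the high CpG class, 16.6% in the intermediate and 22.5% in the low class. The genes themselves were built much like the unmarked lincRNAs. Both groups had a median of 3 exons, against 9 for the protein-coding genes, and single-exon genes made up 5.53% and 5.46%. The median span was 6826 bp at the peaks and 7928 bp in unmarked genes. A transcript of the best support level in the annotation was the longest one in 38.9% of the genes at the peaks and in 31.4% of the unmarked ones, a difference of 7.52 points (2.92 to 12.3).

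Short motifs bound by known activators were counted on both strands from 250 bases before the TSS to 50 after it. A match is a run of letters and not a measured binding site. GGGCGG, the GC box of the SP1 family, was in 21.9% of the lincRNA promoters at the peaks, 7.35% of the unmarked and 66.4% of the protein-coding ones. CCGGAAG, an ETS-family motif, was in 9.51%, 2.73% and 20.5%. CACGTG, the E-box of Myc, USF and related factors, was in 9.96%, 5.34% and 10.7%. GCATGCGC, a core of the NRF1 site, was in 1.99%, 0.832% and 5.77%. For each of these 4 motifs the share at the peaks was above that of unmarked lincRNAs, with an interval of the difference above 0.

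The octamer ATGCAAAT and GGGTGTGG, a KLF motif, had another order. The octamer was in 4.42% of lincRNA promoters at the peaks, 2.06% of the unmarked and 1.20% of the protein-coding ones, 3.22 points above the last (1.66 to 5.54). The KLF motif was in 6.64%, 3.35% and 3.62%, which is 3.02 points above the protein-coding share (1.03 to 5.72). Of the 350 lincRNA genes at shared peaks, 2.29% held the octamer and 4.86% the KLF motif. Of the 81 at wide peaks, 0% held the octamer and 11.1% the KLF motif. Neither POU nor KLF binding was measured. For 3 further motifs the interval of the difference from unmarked lincRNAs included 0. CCAAT, bound by NF-Y, was in 40.04% against 37.3%, and TCAAGGTCA (the ESRRB motif) and AAGATGGCG (the YY1 motif) were each in 0.885% against 0.832%. The CpG class differs between these groups as well, and its part in the motif shares was not tested.

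The octamer was found at 18 of the peaks by their nearest TSS, among them 2700038G22Rik, D230017M19Rik, Gm49448, B530045E10Rik and Gm12088. At AC124316.1, Gm26803, Gm35167, Gm12088 and B930059L03Rik the TSS lay outside the peak, by 996, 884, 427, 167 and 9 bp. At the others it lay inside. The peaks at Gm20939, Gm32856, Gm21814 and Gm39469 lay within 1 kb of a TSS that RefSeq types as protein-coding, as did 19 of all 434. Of the 18, 2 (Gm20939 and Gm32856) had promoters that are copies of each other. Copies were sought as pairs of lincRNA promoters over the same 300 bases, from separate loci, that shared at least 30% of their 20-base words. Of the 434 peaks, 8 lay at copies of another one, in 3 families, which were picked out after their values were seen. The family of Gm31793, Gm20939 and Gm32856 lies on 3 chromosomes, and its promoters are shown with the runs of 20 or more bases common to all 3 promoters in capitals. Shorter common runs are left in lower case.
Gm31793 (chr10:130542247-130542396, plus strand): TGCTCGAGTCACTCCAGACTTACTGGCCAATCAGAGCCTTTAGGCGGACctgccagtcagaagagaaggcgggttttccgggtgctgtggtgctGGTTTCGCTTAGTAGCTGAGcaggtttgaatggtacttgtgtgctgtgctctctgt
Gm20939 (chr17:94864818-94864967, plus strand): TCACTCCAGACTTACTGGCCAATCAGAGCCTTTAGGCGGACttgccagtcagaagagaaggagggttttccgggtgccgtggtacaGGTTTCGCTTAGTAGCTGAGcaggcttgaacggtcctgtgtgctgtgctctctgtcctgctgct
Gm32856 (chr8:129263541-129263690, plus strand): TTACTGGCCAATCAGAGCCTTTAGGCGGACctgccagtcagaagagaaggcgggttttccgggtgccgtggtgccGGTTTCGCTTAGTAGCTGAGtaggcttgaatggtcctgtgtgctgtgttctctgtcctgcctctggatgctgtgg

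The common stretches shown include the letters CCAAT, and the pairs shared 35.2% to 59.4% of their words. Their peaks were 1929, 3558 and 1721 bp wide and all 3 held the TSS. The second family, BC002059, Gm5165 and Gm6712, lies on chromosome 17, with peaks of 1458, 3329 and 1445 bp, and the third is the pair Gm7762 and Gm26754 on chromosome 13. All lincRNA promoters of the first and second family were at one of the 434 peaks, and of 4 alike in the third, 2 were unmarked. Over all lincRNAs the direction was the other way: 2.88% of the lincRNA genes at the peaks and 5.36% of the unmarked ones had a copy at another lincRNA promoter. Reads that map to several places score low and the authors removed them, and the part of this in either share was not tested.

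Listed lincRNA groups were spread over all 4 states, and their counts are small. Of 20 Platr genes, named as pluripotency-associated transcripts, that the annotation types as autosomal lincRNA, 3 were at one of the 434 peaks, 4 at a peak shared with a protein-coding promoter, 7 at a wide peak and 6 at none. This puts 70% of the group at some peak, beside 17% of all. Platr1 had a peak of 3729 bp, Platr11 one of 3741 bp and Platr27 one of 6425 bp, each over the TSS. Platr11 lay 72113 bp from Eomes, a regulator of mesoderm and endoderm. The wide peaks were at Platr4, Platr6, Platr10, Platr19, Platr26, Platr28 and Platr30, and ran from 11769 bp at Platr28 to 26225 bp at Platr19. Platr2, Platr5, Platr7, Platr13, Platr15 and Platr22 were unmarked.

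Lncenc1, a lincRNA named for its expression in embryonic stem cells, had a peak of 7660 bp from 2763 bp upstream to 4896 bp downstream of the TSS. Lncpint, a p53-induced lincRNA, had one of 5493 bp. Pvt1, the neighbour of Myc, had one of 2027 bp that began 116 bp downstream of the TSS used. Trp53cor1 (lincRNA-p21) lay at a wide peak of 21697 bp, and Rmst and Miat, both best known from the nervous system, were unmarked, with the nearest peak 122909 and 13199 bp away. The promoters of Lncenc1 and Platr11 are shown with CpGs in capitals.
Lncenc1 (chr13:97434870-97435019, plus strand): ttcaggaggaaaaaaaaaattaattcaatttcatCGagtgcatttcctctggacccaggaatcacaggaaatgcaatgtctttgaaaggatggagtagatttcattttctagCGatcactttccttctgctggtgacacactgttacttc
Platr11 (chr9:118406050-118406199, minus strand): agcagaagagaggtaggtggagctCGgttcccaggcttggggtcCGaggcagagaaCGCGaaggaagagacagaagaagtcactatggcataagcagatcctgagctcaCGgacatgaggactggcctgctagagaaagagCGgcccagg

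Lncenc1 has 2 CpGs and 38.7% GC in these bases and falls in the intermediate class, and Platr11 has 6 CpGs and falls in the low class.

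Of 9 listed hosts of small RNAs, 4 were at the peaks, beside 8.68% of all autosomal lincRNA genes, with 2 more at shared peaks and 3 unmarked. All 4 had promoters of the high CpG class, beside 14.8% of the 452 genes at the peaks, and so had 3 of the other 5 hosts (Snhg10, Snhg20 and Snhg18). Snhg6 and Snhg12, which carry small nucleolar RNAs in their introns, had peaks of 5932 and 3349 bp. Mir155hg had one of 946 bp, from 411 bp upstream to 534 bp downstream, and Mir17hg one of 5297 bp, whose downstream edge lay 2665 bp into the gene. Mir142hg, Mir670hg and Snhg18 were unmarked, and the nearest peak to the start of Snhg18, whose promoter is of the high CpG class, was 642033 bp away.

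In all, 16 microRNA hairpins lay inside 9 of the lincRNA genes at the peaks, on the same strand. Hairpins in the other lincRNA genes were not counted, so nothing particular to the peaks is read from this number. Mir17hg carries 6, Mir17, Mir18, Mir19a, Mir20a, Mir19b-1 and Mir92-1, and the leading arms of their mature forms fall into 4 seed groups. They are shown as RefSeq gives them, with the seed, bases 2 to 8, in capitals. The seed of miR-17-5p and miR-20a-5p is the same, as is that of miR-19a-3p and miR-19b-3p.
mmu-miR-17-5p: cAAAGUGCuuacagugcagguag
mmu-miR-20a-5p: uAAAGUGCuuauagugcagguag
mmu-miR-18a-5p: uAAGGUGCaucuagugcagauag
mmu-miR-19a-3p: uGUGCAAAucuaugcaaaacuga
mmu-miR-19b-3p: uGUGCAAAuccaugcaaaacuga
mmu-miR-92a-3p: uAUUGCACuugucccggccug

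The peak at Mir17hg covered all 6 hairpins. Of the other 10 hairpins, only Mir5103 in Gm37233 lay under its host's peak. A second cluster, noticed after the values were seen, lies in 6720427I07Rik, which spans the hairpins of let-7a-1, let-7f-1 and let-7d. The let-7 family is known for rising when stem cells differentiate, and the 5p arms of these hairpins share 1 seed.
mmu-let-7a-5p: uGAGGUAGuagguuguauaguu
mmu-let-7f-5p: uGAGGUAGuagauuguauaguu
mmu-let-7d-5p: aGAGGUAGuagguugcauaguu

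The peak at 6720427I07Rik was 8897 bp wide, from 1790 bp upstream to 7106 bp downstream of the TSS, and 1121 bp lay between it and the nearest hairpin, that of let-7a-1. Its promoter was of the high CpG class, with a ratio of 0.884 in the 1 kb around the TSS. The level of the mature microRNAs was not measured. Other hosts were Mir155hg (Mir155), AL805899.1 (Mir31), 4631405K08Rik (Mir205), E130102H24Rik (Mir101a), Gm37233 (Mir5103), Gm16863 (Mir7680) and 2900076A07Rik (Mir1839).

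The imprinted lincRNAs H19, Meg3 and Mirg were all unmarked, as were 83.0% of all autosomal lincRNA genes, with the nearest peak 44002, 5477 and 150055 bp from the TSS. Malat1 and Neat1, which form or fill nuclear bodies, were both at peaks too wide for the rule (19169 and 19176 bp). Of 5 lincRNAs of the Hox clusters and lineages, Halr1 had a peak of 6108 bp that ran from 433 bp upstream to 5674 bp downstream of the TSS. Hottip, Hotair and Pantr1 were unmarked, and Bvht lay at a wide peak of 24383 bp. Over all autosomal lincRNA genes 8.68% were at the peaks and 83.0% unmarked, and with 5 genes nothing particular to this group can be read from the counts.

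Most of the lincRNAs at the peaks have no descriptive name. The symbol of the nearest lincRNA began with Gm in 265 peaks (61.1%), ended in Rik in 106 (24.4%) and was a clone name in 35 (8.06%).

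The protein-coding neighbours of the peaks mostly lay 10 kb or more away. The median distance from a peak to the nearest protein-coding TSS was 31448.5 bp (95% interval 29122–36493 bp), and 205 peaks (47.2%) lay 10 to 50 kb from it, 29 (6.68%) within 5 kb and 69 (15.9%) beyond 100 kb. Measured from the lincRNA TSS, the median was 33757.5 bp for the 452 genes at the peaks and 68766.5 bp for unmarked lincRNA genes. The rule itself keeps peaks off protein-coding promoters, so the shortest distances are missing by construction. The nearest coding gene was read in the same direction at 230 peaks (53.0%), divergently at 123 (28.3%) and convergently at 81 (18.7%). Of the 15 lincRNA starts within 5 kb of a coding start, 9 were divergent, beside 207 of 370 unmarked lincRNA genes (55.9%). At 5 to 50 kb, 27.2% of 265 lincRNA genes at the peaks and 36.2% of 1452 unmarked ones were divergent. Beyond 50 kb the shares were 27.3% of 172 and 27.8% of 2504.

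The nearest protein-coding gene had a promoter under a peak for 325 of the 452 genes (71.9%, 95% interval 67.6–75.8%) and for 2290 of the 4326 unmarked lincRNA genes (52.9%, 51.4–54.4%). By distance, the share of lincRNA genes at one of the 434 peaks was higher with a marked neighbour in 4 of 5 ranges. Where the coding start was 10 to 50 kb away, 18.8% of 885 lincRNA genes with a marked neighbour and 9.98% of 611 with an unmarked one lay at one of the 434 peaks. At 50 to 100 kb the shares were 12.8% and 7.54%, at 5 to 10 kb 16.1% and 7.27%, and beyond 100 kb 5.23% and 3.00%. At 2 to 5 kb they were 5.56% and 6.90% with wide intervals. At 10 to 50 kb the 95% intervals were 16.3–21.5% and 7.85–12.6%, given as a description of which genes the peaks reached.

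**Figure D4:**
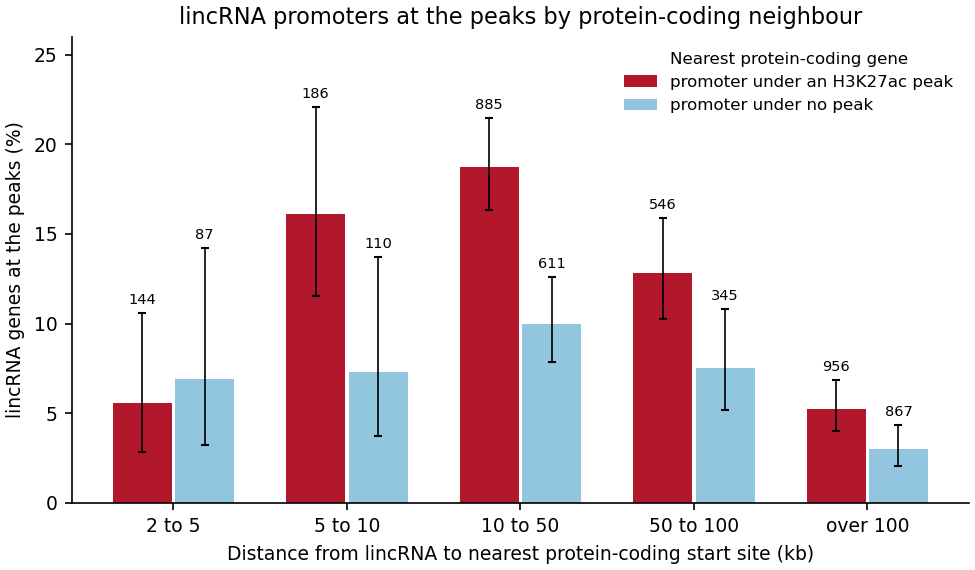
Share of autosomal lincRNA genes at one of the 434 peaks (%) by the distance from their TSS to the nearest protein-coding TSS in kb, for coding neighbours with a peak at their promoter (red) and without (blue). Bars start at 0, error bars are 95% Wilson intervals, and the number of lincRNA genes stands above each bar, the highest share being 18.8% at 10 to 50 kb with a marked neighbour.

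A gene of the pluripotency and signalling list was the nearest coding neighbour at 3 of the 434 peaks (0.691%, 95% interval 0.235–2.01%) and of 36 of the 4326 unmarked lincRNA genes (0.832%, 0.602–1.15%). The peaks at 4930519A11Rik (5595 bp) and Gm40271 (3078 bp) lay 33617 and 28403 bp from the start of Mycn, a paralogue of Myc, and 2136 bp apart. Both lincRNA genes and Mycn face each other (convergent), and both promoters were of the low CpG class. The peak at Pvt1 lay 50744 bp from the start of Myc, and Pvt1 is read in the same direction.

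Several coding genes neighboured more than 1 of the peaks. Zfp825, a zinc-finger gene, was the nearest coding gene for 4 of them (E430024I08Rik, Gm49762, Gm47467 and Gm47469), and Ly86 and Gm21863 for 3 each, and 32 coding genes for 2. Within 50 kb a median of 2 other peaks of the list lay around a lincRNA peak, and 76 (17.5%) had no other peak within 50 kb.

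The 18 peaks with 2 lincRNA promoters held 11 convergent pairs, 4 on the same strand and 3 divergent. The starts of the divergent pairs were 100, 328 and 615 bp apart. The convergent pairs, whose transcripts run towards or across each other, had a median of 845 bp between starts, from 11 bp (Gm49107 and Gm49106) to 2469 bp (Gm29638 and 1810019N24Rik). Tmem250-ps, shown above for its CpG content, shared its peak with 1810012K08Rik.

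By chromosome, the share of lincRNA genes at one of the 434 peaks ran from 1.81% (5 of 277) on chromosome 3 to 15.2% (35 of 231) on chromosome 17. Chromosome 3 had 35 lincRNA genes under some peak, of any width or sharing, so that its lincRNA promoters were reached mainly by peaks outside the rule. Chromosome 13 had the most lincRNA genes, 414, and 10.1% of them (interval 7.59–13.4%) were at the peaks, beside 8.68% over all autosomes. It also had the most peaks, 41. On it Gm4035, Gm47730 and Gm29458 lay in a row near Ly86, and the midpoints of the peaks of the first pair were 5560 bp apart, the shortest such distance among the 434, with 2128 bp between their edges. Over all chromosomes the midpoints of 30 neighbouring pairs lay within 50 kb of each other.

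**Figure D5:**
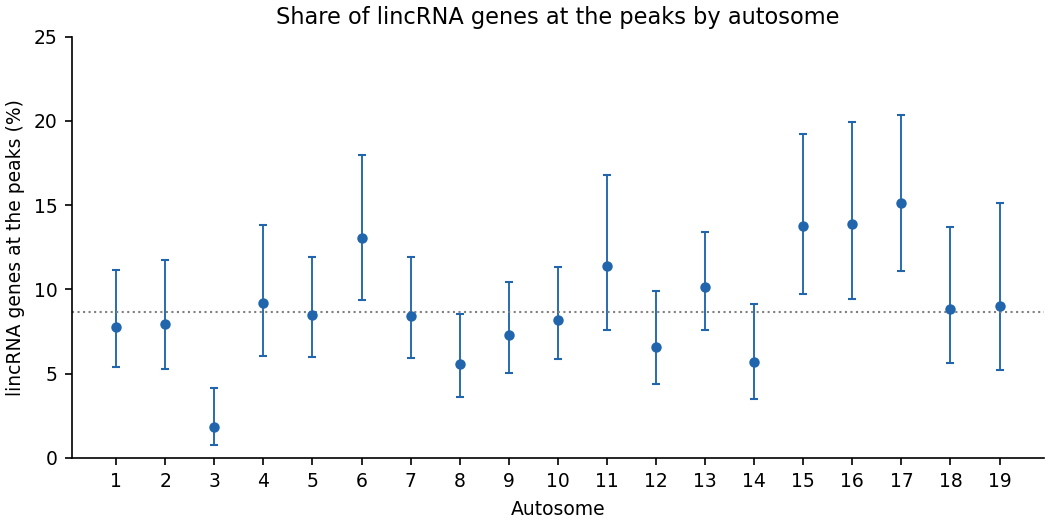
Share of lincRNA genes at one of the 434 peaks (%) on each autosome, with 95% Wilson intervals. The dotted line is the share over all autosomes, 8.68%. The shares run from 1.81% on chromosome 3 to 15.2% on chromosome 17. They are a description, since neighbouring genes are not independent of each other.

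Other annotations touched some of the peaks. Promoters of other gene types were overlapped by 51 peaks (11.8%), most often processed pseudogenes (14), processed transcripts (10), genes not yet checked by experiment (TEC, 7) and small nucleolar RNAs (6). In RefSeq, 19 of the 434 peaks lay within 1 kb of a TSS of a gene that it types as protein-coding, among them Cplx2 near Gm48623 and Zfp640 near Gm40988. Of 244 lincRNA genes at the peaks that RefSeq lists under the same symbol, 225 were lncRNA there, 16 protein-coding and 3 pseudogenes. The 19 include Gm20939, Gm32856, Gm21814, Gm39469, Gm5165, Gm6712, Gm7762 and Tmem250-ps, named above. The label of the peaks as lincRNA-only thus holds in GENCODE and not in RefSeq for these 19.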

How the data were processed

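The authors immunoprecipitated H3K27ac from DMSO-treated mESCs, aligned the reads to mm10 and a human genome together, removed duplicates (Picard 2.9.1) and low-quality alignments (SAMtools 1.4; versions from the submitters' processing notes), took peaks with LanceOtron, merged those within 2 kb, and dropped peaks of low height or far from ATAC-seq summits. The deposited list gives chromosome, start and end in base pairs, pooled over 2 control samples. It holds no height, score or count, so no other unit was used, and a promoter without a peak may have failed a filter.

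Peaks were overlapped with GENCODE M21 promoters (TSS ± 1 kb, at least 1 bp), an earlier release than the paper names, and sequence was read from RefSeq GRCm38.p6, soft-masked by a method not given in the sources used here. Starts are counted from 1. For a peak with 2 lincRNA genes, the TSS nearest its midpoint was used, except in counts of genes. Shares have 95% Wilson intervals, differences Newcombe intervals and medians exact order-statistic intervals. No test was possible, since 1 pooled list has no replicates. The members, gene lists, motifs and named genes (listed genes, the 10 widest, the 5 narrowest, those at the limits, the extremes of CpG ratio and neighbours of pluripotency genes) were chosen with earlier results of these data known. Where gene symbols occur in other gene types, they were left out of the lists. The overlap code was tested on simulated data, and all 399 of 399 placed peaks that met the rule were found, with 0 in error. Scripts ran in Python 3.11.15 with pandas 2.3.3 and numpy 2.4.6, intervals came from scipy 1.17.1 and plots from matplotlib 3.10.9.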

Additional observations from a re-analysis of the deposited data

How the results depend on the processing

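No paired analysis was possible because the replicates were pooled into 1 list, and no replicate could be left out. Under 11 other settings fixed with the design and 2 added after the data were seen (without the peaks near a RefSeq protein-coding TSS, and without those at promoter copies), the number of peaks ran from 265 to 505, the median GC content from 48.2 to 49.2%, the share of peaks with a high-CpG promoter from 12.01 to 18.1% and the share of soft-masked start sites from 16.8 to 19.5%. Taking a peak by its midpoint left 265 peaks with a median GC content of 49.2%, and a further setting for the CpG class alone, the 500 bp centred on the TSS, put 7.60% of the peaks in the high class. Taking the midpoint also lowered the share of lincRNA genes at a peak from 8.68 to 5.18% and the median width to 1799 bp, and no width limit raised the width to 3358 bp. The share of peaks that held the TSS ran from 69.0 to 100%, the last by construction, since only peaks over the TSS were kept. The distance to the nearest coding TSS moved between 29655 and 33085 bp. Where a setting keeps fewer peaks this follows from its construction, and the cause of the other shifts was not tested. The depth behind each peak cannot be read from the list.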
